A study of Homo sapiens with 23 samples.

Results

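The nuclear genes of oxidative phosphorylation were followed in 2 established cervical squamous carcinoma cell lines, C-33A and CaSki, after transfection of a microRNA mimic, a synthetic duplex that stands in for the mature microRNA. C-33A is HPV-negative, and CaSki is HPV-positive and comes from a metastasis. The groups in each line were cells given a mimic of miR-124-3p, cells given one of miR-23b-3p, cells given one of miR-218-5p and cells given the negative control n#1, each at 100 nM. PolyA RNA was sequenced in 23 samples, 3 in each of the 8 groups except C-33A with miR-124-3p, which had 2. Whether the samples of one group were separate cultures is not stated in the labels, and p-values measure only how far these samples spread, a spread that may be technical.

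Members were chosen by gene symbol. They are the structural subunits of complexes I to V that the symbols starting with NDUF, SDH, UQCR, COX and ATP5 name, together with CYC1, the cytochrome c1 gene. Of 61217 listed genes, 76 were members. Of these, 73 had an average log2 CPM (log2 of counts scaled to library size) of 0 or more in each C-33A table and 74 in each CaSki table, and only they are counted below. NDUFA3 and NDUFA7 were below that level in both lines and NDUFA6 in C-33A alone. In the deposited CaSki miR-23b-3p table, NDUFA3, the nearest below the limit, was at -0.22 and NDUFV2, the nearest above it, at 2.88. ATP5MD is listed under its newer symbol ATP5MK, which the rule does not take, and its value is given below.

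The respiratory chain sits in the inner mitochondrial membrane. Complex I takes electrons from NADH and complex II from succinate. Complex III passes them from ubiquinol to cytochrome c and complex IV from cytochrome c to oxygen. Complex V uses the resulting proton gradient to make ATP. All complexes but complex II combine nuclear subunits with subunits encoded in mitochondrial DNA, and the nuclear genes have long been known as targets of the activators NRF1, GABP (an ETS factor) and YY1. A microRNA lowers transcripts mainly by pairing of its seed, bases 2 to 8, with the 3′ UTR.

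Each comparison has one deposited edgeR table by the authors, with the log2 fold change of mimic over negative control, the average log2 CPM, and p before and after adjustment (FDR). Members with a deposited FDR under 0.05 were called, as fallen or risen by their sign. The standard error (SE) beside a log2 fold change was recovered from the deposited p-value, and the depth of each sample is not given, since no values per sample are analysed here. In the 3 CaSki tables, the 6 squamous epithelial markers had an average log2 CPM between 6.51 and 12.1, whereas in the 3 C-33A tables the highest of them was at -1.12. Keratins and the other 2 genes of the simple epithelium list reached at most 0.88 in C-33A, so the epithelial label of that line is not borne out by these markers. Of the markers of fibroblasts, leukocytes and endothelium, the highest was at 2.97 in C-33A and 1.89 in CaSki. The keratins KRT8, KRT19 and KRT17 fell in CaSki with miR-23b-3p. Their deposited falls were 0.58 (FDR = 0.000355), 0.44 (FDR = 0.00536) and 0.38 (FDR = 0.0192). TP63 of the squamous list was at 0.38 (FDR = 0.0811) and CDH1 of the simple list at 0.23 (FDR = 0.397) there, neither called. Above 0 were 1 of 5 simple and 2 of 6 squamous epithelial markers. The part of these markers in the members' values was not tested. A non-coding RNA, RN7SL1, took between 13.7% and 16.4% of the counts.

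The mature sequences of miR-23b-3p and miR-218-5p are shown because their seeds define the matches looked for in the members, and the capitals mark the seed. They are credited to RefSeq. MiR-124-3p is named only.
miR-23b-3p: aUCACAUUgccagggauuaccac
miR-218-5p: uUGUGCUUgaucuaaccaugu

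The 3′ UTR of the principal GENCODE transcript held a match to the miR-23b-3p seed, AATGTGA, in 13 of 74 members kept in CaSki. That is 17.6% of them, beside 19.3% of all annotated genes, and the median 3′ UTR of the members was 218.5 nt long against 1102 nt over all genes. The sites of the called members with the lowest log2 fold change in CaSki are shown, with the match in capitals, in GRCh38 and on the strand of the gene. In the annotated 3′ UTRs, the SDHC sites begin at bases 5621 and 6967 of 12907. Those of UQCRFS1 begin at 131 and 1430 of 2227, COX7B at 845 of 2112 and COX7C at 762 of 1292. UQCR10 and NDUFA2 have theirs at 208 of 694 and 61 of 302. A shorter form in these cells could lack the more distant sites, and the form used was not tested.
SDHC, chr1:161368054-161368060, + strand: aagactgagtaAATGTGAgaaaattagct
SDHC, chr1:161369400-161369406, + strand: aatacctggatAATGTGAgatctggaaag
UQCR10, chr22:29769927-29769933, + strand: ctcaggaaataAATGTGAattgcccttga
NDUFA2, chr5:140645520-140645526, − strand: ggacttagtatAATGTGAaaaaaatgtgt
UQCRFS1, chr19:29207411-29207417, − strand: ttgcaaacattAATGTGAaataaattgaa
UQCRFS1, chr19:29206112-29206118, − strand: ggcagagttggAATGTGAaacattgagtt
COX7B, chrX:77906106-77906112, + strand: ttttatgaggtAATGTGAaaggaaaattt
COX7C, chr5:86620231-86620237, + strand: gggcatttggcAATGTGAgacatttttga

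In CaSki with the miR-23b-3p mimic, members of all 5 complexes fell relative to the negative control. The authors' deposited table called 23 of 74 members as fallen and 0 as risen, beside 3.84% of all genes at that level called as fallen and 5.25% as risen. The median log2 fold change of the members was -0.30, against 0.00 over all genes, and 69 of 74 members were below 0, beside 49.9% of all genes. At an unadjusted p under 0.05, 41 members were lower and 1 was higher, beside 14% of all genes lower. A bulk measurement cannot tell fewer cells of a kind from less RNA per cell.

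**Figure D1:**
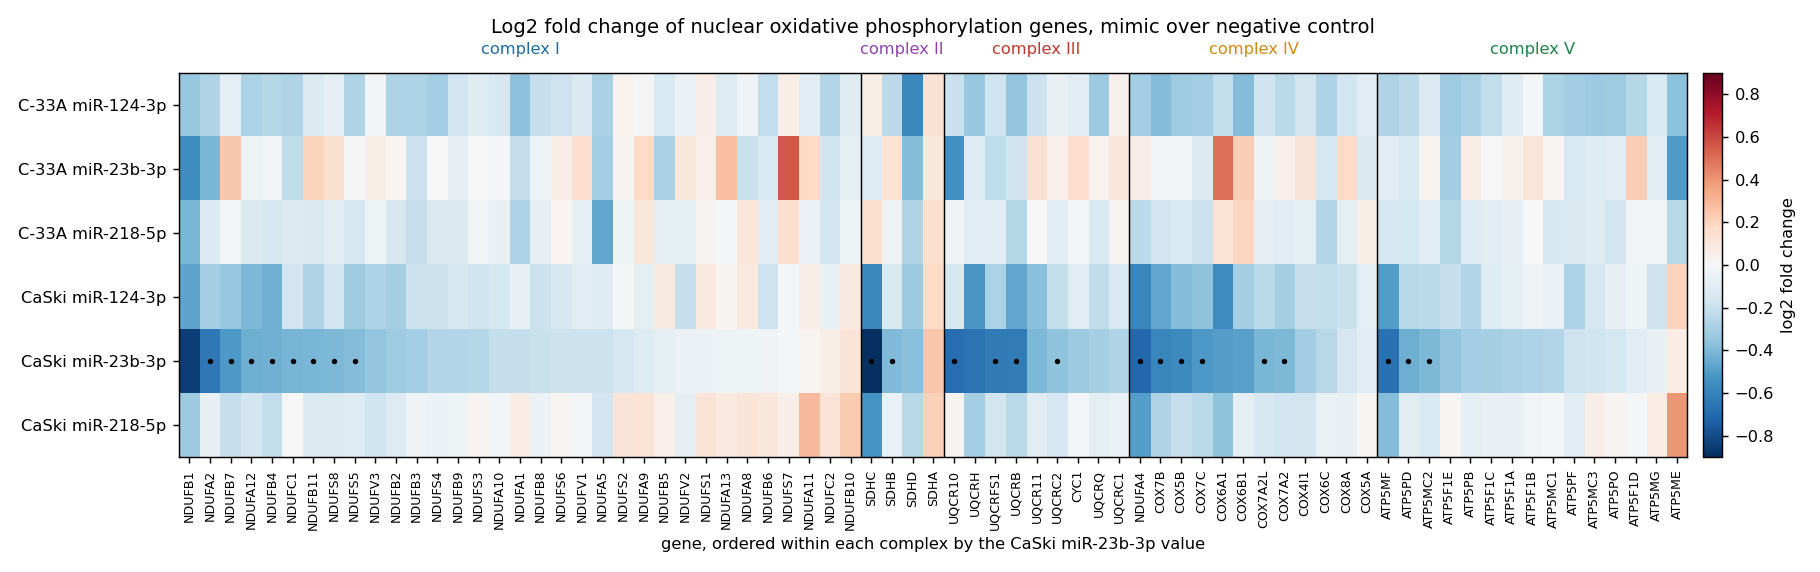
Heat map of the deposited log2 fold change (colour, from -0.9 to 0.9) of the 73 members kept in all 6 tables, in columns by complex, for each mimic over the negative control of its line, in rows. Black dots mark a deposited FDR under 0.05: all 23 lie in the CaSki miR-23b-3p row.

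Complex I, the largest complex, had 8 of 34 members called as fallen in the deposited CaSki miR-23b-3p table, with a median log2 fold change of -0.22. NDUFA2, an accessory subunit of the peripheral arm, fell by 0.64 on the log2 scale (SE 0.146, FDR = 0.00172) in the authors' deposited table. NDUFB7 and NDUFB4, accessory subunits of the membrane arm, fell by 0.51 (SE 0.121, FDR = 0.00284) and 0.43 (SE 0.112, FDR = 0.0103) there. NDUFA12, NDUFB11, NDUFC1, NDUFS5 and NDUFS8 also fell, with deposited log2 fold changes between -0.44 and -0.39. Of these, NDUFS8 carries iron-sulphur clusters and is a core subunit, whereas the others are accessory subunits. The core subunits NDUFS1, which holds clusters of the NADH-oxidising module, and NDUFS7 had deposited log2 fold changes of -0.05 and -0.01 and were not called. The highest value in complex I was that of NDUFB10, at 0.12 (FDR = 1). NDUFB1 had the lowest value after NDUFA6, at -0.84, but an SE of 0.437 and a deposited FDR of 0.525.

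Complex II, succinate dehydrogenase, split by subunit. SDHC, a membrane anchor that helps to bind haem and ubiquinone, fell by 0.90 (SE 0.184, FDR = 0.000342) in the deposited CaSki miR-23b-3p table. SDHB, the iron-sulphur subunit, fell by 0.40 (SE 0.114, FDR = 0.0259) there. SDHA, the flavoprotein that oxidises succinate, had a deposited log2 fold change of 0.25 (SE 0.126, FDR = 0.506), the highest of all members in that table. The other anchor, SDHD, was at -0.37 with an SE of 0.484.

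All 9 members of complex III were below 0 in the deposited CaSki miR-23b-3p table, with a median log2 fold change of -0.40, and 4 were called. UQCR10, a small accessory subunit, fell by 0.69 (SE 0.18, FDR = 0.0106). UQCRFS1, the Rieske iron-sulphur protein, fell by 0.64 (SE 0.143, FDR = 0.00144), and UQCRB, which contributes to ubiquinone binding, fell by 0.63 (SE 0.119, FDR = 7.56e-05) in the same deposited table. UQCRC2, a core protein, fell by 0.36 (FDR = 0.0414). The other core protein, UQCRC1, was the least low of the 9, at -0.27 (FDR = 0.217).

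Complex IV, cytochrome c oxidase, had 6 of 12 members called and the lowest median, -0.45. NDUFA4, now known as a subunit of this complex despite its name, had the lowest p of all members and fell by 0.70 (SE 0.128, FDR = 3.06e-05) in the authors' deposited table. COX7B, COX5B and COX7C, small nuclear subunits around the mitochondrially encoded core, fell by 0.59 (FDR = 0.00023), 0.57 (FDR = 0.000358) and 0.51 (FDR = 0.00137). COX7A2L, which links complexes III and IV into supercomplexes, fell by 0.41 (FDR = 0.0139). The call for its paralogue COX7A2 rested on a fall of 0.40 (FDR = 0.0194). COX5A was nearest to 0, at -0.09 (FDR = 1).

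Complex V, the ATP synthase, had 3 of 15 members called in the deposited CaSki miR-23b-3p table, with a median of -0.28. ATP5MF, a small subunit of the membrane sector, fell by 0.67 (SE 0.128, FDR = 9.2e-05). ATP5PD of the peripheral stalk fell by 0.44 (FDR = 0.026) and ATP5MC2, one of the genes for the proton-conducting c subunit, fell by 0.40 (FDR = 0.0253). The catalytic subunit ATP5F1B and its partner ATP5F1A were at -0.28 (FDR = 0.154) and -0.29 (FDR = 0.14). ATP5ME, a dimerisation subunit, was the highest of the complex at 0.07. Outside the rule, ATP5MK, the renamed ATP5MD, fell by 0.63 (FDR = 0.000136) in the deposited table, and ATP5MJ by 0.46 (FDR = 0.0048). Both were named after their values were seen.

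**Figure D2:**
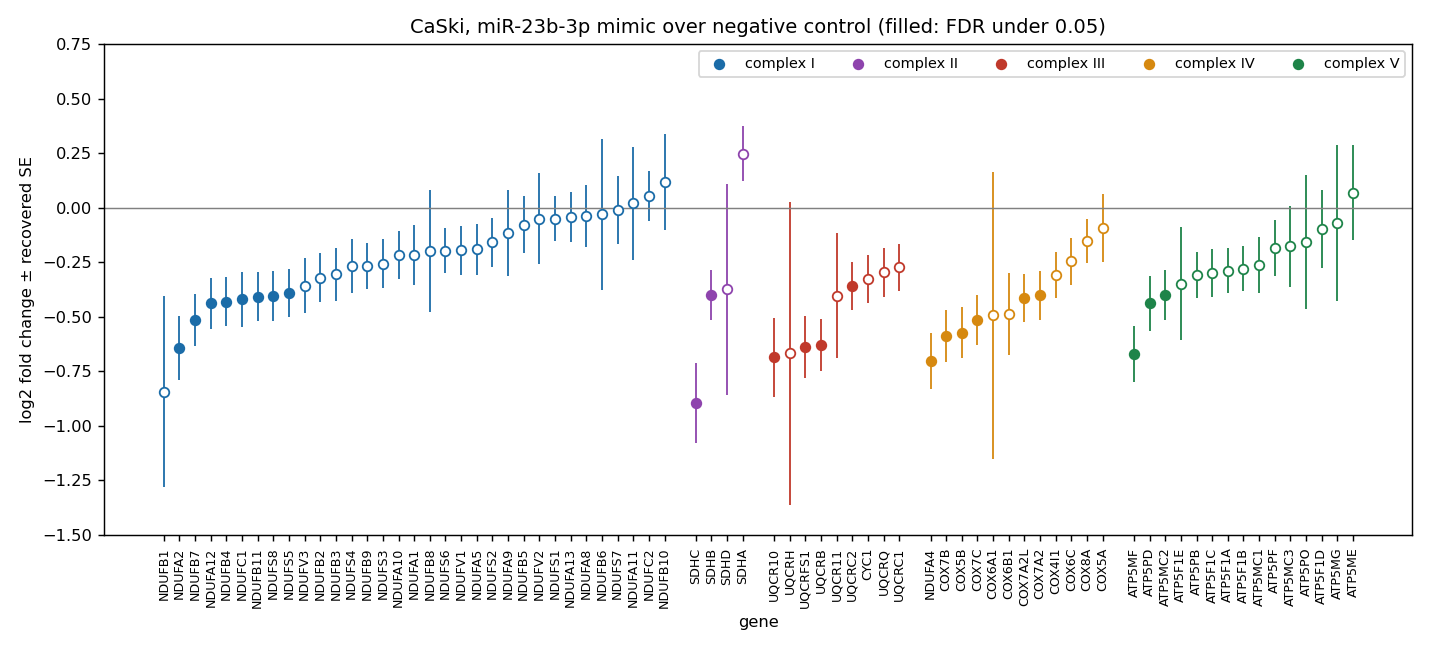
Deposited log2 fold change (vertical axis) with its recovered SE (bars) of 73 members in CaSki, miR-23b-3p mimic over negative control, ordered within each complex. NDUFA6, at -13.64, is left out. Filled points are the 23 members at a deposited FDR under 0.05, and SDHC at -0.90 is the lowest of them.

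Among the members kept in CaSki with miR-23b-3p, the 13 with a seed match had a median log2 fold change of -0.42 and the others -0.28. Over all annotated genes those medians were 0.05 with a match and -0.03 without. In C-33A with the same mimic, the 13 of 73 members with a match had a median of -0.23 and those without 0.02, beside -0.09 and 0.05 over all genes. Of the genes whose sites are shown above, the 2 UQCRFS1 matches and those of UQCR10, NDUFA2 and COX7B are followed by an A, and those of SDHC and COX7C are not. The deposited C-33A table gave UQCR10 a log2 fold change of -0.54 (FDR = 0.951), NDUFA2 -0.41 (FDR = 1) and UQCRFS1 -0.23 (FDR = 1). It gave SDHC -0.12 (FDR = 1), COX7C -0.13 (FDR = 1) and COX7B -0.02 (FDR = 1), with none of these 6 called in C-33A. NDUFA4 and UQCRB, the members with the lowest p in CaSki, held no miR-23b-3p match. For miR-218-5p, 4 of 74 members kept in CaSki held a match, AAGCACA, which is 5.41% beside 14% of all genes.

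Promoters are shown because many members moved together. Of the 62 members with a promoter entry, 250 bases before to 50 after the start in RefSeq GRCh38.p14, 20 held the NRF1 motif GCGCANGCG on either strand, 32.3% beside 11.1% of all promoters. The YY1 motif AGATGGCGG was found in 8 (12.9% beside 2.29%) and the ETS motif CCGGAAG in 19 (30.6% beside 14.4%). Of the 18 called CaSki miR-23b-3p members with an entry, 5 held the NRF1 motif, 1 the YY1 motif and 4 the ETS motif. The 2 promoters below belong to the called members with an NRF1 match and the lowest p, and capitals mark that match.
UQCRFS1, chr19:29213102-29213401, − strand: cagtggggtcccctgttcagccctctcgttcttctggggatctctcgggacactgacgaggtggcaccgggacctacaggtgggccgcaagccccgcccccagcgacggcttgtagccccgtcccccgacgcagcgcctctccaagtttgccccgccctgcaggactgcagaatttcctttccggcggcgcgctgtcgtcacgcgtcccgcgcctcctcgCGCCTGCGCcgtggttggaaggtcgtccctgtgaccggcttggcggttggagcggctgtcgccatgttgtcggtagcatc
NDUFB4, chr3:120596086-120596385, + strand: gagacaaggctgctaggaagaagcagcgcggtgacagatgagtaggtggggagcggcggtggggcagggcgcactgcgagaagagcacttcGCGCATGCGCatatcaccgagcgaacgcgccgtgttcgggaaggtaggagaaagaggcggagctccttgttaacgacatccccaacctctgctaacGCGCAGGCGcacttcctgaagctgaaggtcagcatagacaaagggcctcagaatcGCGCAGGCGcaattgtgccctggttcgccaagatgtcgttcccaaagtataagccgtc
UQCRFS1 thus had 1 stretch in capitals, on the opposite strand, and NDUFB4 had 3, the first of which matches on both strands. A match is a description of these letters and says nothing of binding.

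The fold change of all genes in CaSki also followed transcript length. Members are short, with a median principal transcript of 1080 nt against 3144 nt over all annotated genes. In CaSki with miR-23b-3p, all genes under 700 nt had a median log2 fold change of -0.39 and those of 8000 nt or more 0.29. The 16 members under 700 nt had a median of -0.43, close to that of all genes of the class. The 18 members from 700 to 1000 nt were less far below 0 than all genes of that class, with a median of -0.28 beside -0.37. From 1000 to 1500 nt the median was -0.31 over 16 members beside -0.24 over all genes, and from 1500 to 2500 nt it was -0.27 over 11 members beside -0.14. In the classes from 2500 to 4000 nt and from 4000 to 8000 nt, the members, 5 in each, had medians of -0.35 and -0.29, beside -0.02 and 0.12 over all genes. The 3 members of 8000 nt or more had a median of -0.12. The class of a member rests on its annotated form, and a shorter form in these cells could move it to another class. Of the 5575 nt of UQCRB and the 3665 nt of ATP5F1E, 5135 and 3378 nt are annotated 3′ UTR.

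With a trend on length and GC content subtracted, 12 members were called in CaSki with miR-23b-3p, all lower, and the median was -0.12, with 4.38% of all annotated genes called as lower. Of the 23 members called in the deposited table, 7 were among these 12. They were SDHC, UQCRB, UQCRFS1, UQCRC2, NDUFA4, COX7B and COX7C. The calls of the other 16 were lost, among them NDUFB7, at -0.02 after subtraction, NDUFA2, at -0.38 (FDR = 0.0715), UQCR10, at -0.45 (FDR = 0.0911), and ATP5MF, at -0.27 (FDR = 0.169). NDUFS1, NDUFA10, NDUFV3, ATP5F1A and ATP5PB were called only after subtraction. The step follows the annotated length, and the principal transcripts of SDHC and UQCRB are 13566 and 5575 nt long. Those of UQCRFS1, UQCRC2, COX7B, NDUFA4 and COX7C are 3475, 2615, 2471, 2130 and 1584 nt long. Among the 16 members whose calls were lost, ATP5MC2 has the longest, 1950 nt. The principal transcripts of NDUFS1, NDUFA10, NDUFV3, ATP5F1A and ATP5PB are 11819, 4915, 4676, 5818 and 3156 nt long. A shorter form in these cells would change the value of any of these members. NDUFS1 was at -0.05 in the deposited table and at -0.35 after subtraction.

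**Figure D3:**
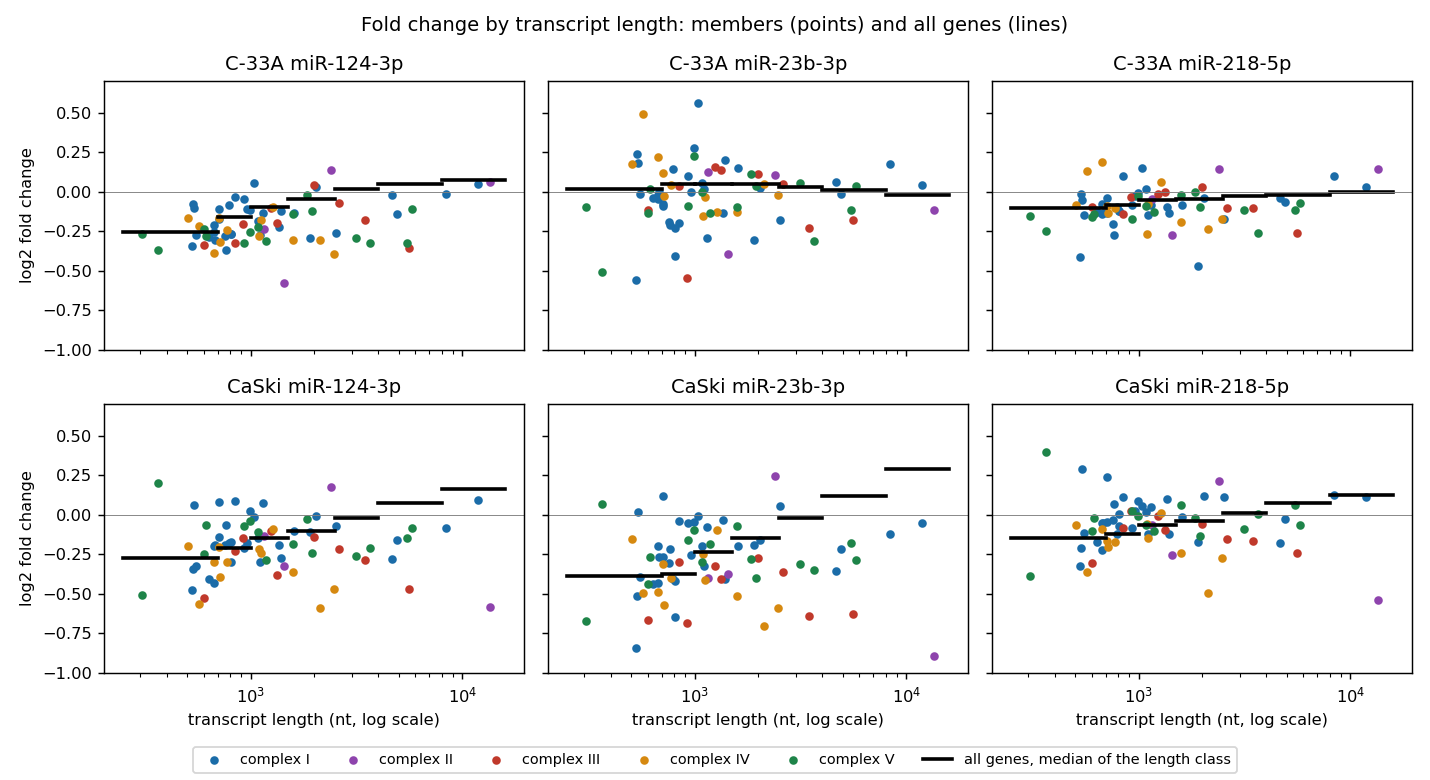
Deposited log2 fold change (vertical axis) against principal transcript length in nt (log scale) of the members without NDUFA6, by complex, in the 6 comparisons. Black lines are the medians of all genes in 7 length classes, and in CaSki with miR-23b-3p they run from -0.39 to 0.29.

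With miR-124-3p, most members lay below 0 in both lines, with none called. In the deposited C-33A table, 67 of 73 members were below 0, beside 50.8% of all genes, and the median log2 fold change was -0.22 against 0.00. All 12 members of complex IV and all 15 of complex V were below 0. No member passed the threshold, beside 0.517% of all genes called as fallen and 0.116% as risen, and 5 were lower at an unadjusted p under 0.05, beside 5.43% of all genes. SDHD, the anchor of complex II, had the lowest p, with a deposited log2 fold change of -0.58 (SE 0.178, FDR = 0.317). COX7B was at -0.39, NDUFA1 at -0.37, UQCRB at -0.36 and SDHA, again the highest, at 0.14.

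In the deposited CaSki table of miR-124-3p, 66 of 74 members were below 0, beside 52% of all genes, with a median of -0.20 against -0.01. None was called, beside 0.801% of all genes called as fallen and 0.4% as risen. At an unadjusted p under 0.05, 16 members were lower, beside 7.16% of all genes. NDUFB4 had the lowest p, with a deposited log2 fold change of -0.43 (SE 0.143, FDR = 0.302), followed by NDUFA12 at -0.40 and ATP5MF at -0.51. NDUFA4 and SDHC were at -0.59 (FDR = 0.641) and -0.58 (FDR = 1). With the trend subtracted, the medians were -0.05 in C-33A and -0.03 in CaSki.

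With miR-23b-3p in C-33A, the members lay around 0. In the authors' deposited table, 39 of 73 were below 0, beside 47.6% of all genes, and the median was -0.01 against 0.01. None was called, beside 0.125% of all genes called as fallen and 0.0657% as risen, and 5 were lower at an unadjusted p under 0.05, beside 2.3% of all genes. NDUFB1 was at -0.56 (FDR = 0.721) and ATP5ME at -0.51 (FDR = 1). NDUFS7 was at 0.56 (FDR = 1) and COX6A1 at 0.49 with an SE of 0.415. Across the 73 members, the deposited log2 fold change went with the GC content of the transcript (Spearman rho 0.55), as a description only, since the members share the libraries. This was not particular to the comparison: rho lay between 0.21 and 0.42 in the other comparisons, without NDUFA6.

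With miR-218-5p, most members also lay below 0, closer to it. The deposited C-33A table had 62 of 73 members below 0, beside 58.3% of all genes, with a median of -0.10 against -0.04. None was called, beside 0.273% of all genes called as fallen and 0.026% as risen. NDUFA5, an accessory subunit of complex I, was the only member lower at an unadjusted p under 0.05 (-0.47, SE 0.163, FDR = 1), beside 3.61% of all genes. In the deposited CaSki table, 51 of 74 members were below 0, beside 48.4% of all genes, with a median of -0.06 against 0.01. None was called, beside 0.0848% of all genes called as fallen and 0.013% as risen, and 2 were lower at an unadjusted p under 0.05, beside 2.62% of all genes. These were NDUFA4 at -0.49 (FDR = 1) and ATP5MF at -0.39 (FDR = 1). ATP5ME was at 0.39 (FDR = 1). With the trend subtracted, the median was -0.04 in C-33A, with 48 of 73 members below 0, and 0.00 in CaSki, with 37 of 74 below 0.

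**Figure D4:**
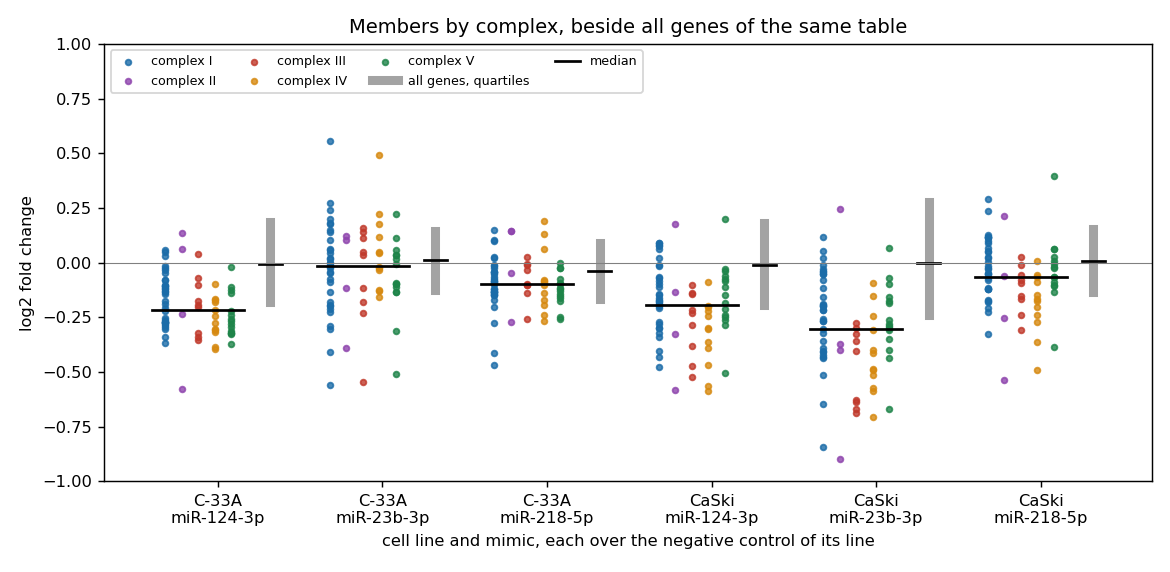
Deposited log2 fold change (vertical axis) of each member, by complex, in the 6 comparisons, with the members' median as a line, beside the quartiles (grey bar) and the median of all genes. The members' median is lowest in CaSki with miR-23b-3p, at -0.30, and NDUFA6 is left out of the points.

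The lines were set against each other by a normal test of the difference of their fold changes, adjusted over all genes kept in both tables. For miR-23b-3p, the log2 fold change was higher in C-33A than in CaSki for 62 of 73 members, with a median difference of 0.32, against -0.01 over all genes. NDUFA4 had a deposited log2 fold change of 0.05 in C-33A, against -0.70 in CaSki, a difference of 0.75 (SE 0.21, adjusted p = 0.0332). NDUFB7 had 0.24 in C-33A, against -0.51 in CaSki, a difference of 0.76 (SE 0.206, adjusted p = 0.0281). These 2 were the only members past the threshold in this test, beside 0.775% of genes called with the C-33A value higher and 0.93% with it lower. In CaSki, NDUFA4 was also at -0.59 with miR-124-3p and -0.49 with miR-218-5p, and NDUFB7 at -0.34 and -0.21, none called. The CaSki comparisons share their control samples, whose part in these differences was not tested. At an unadjusted p under 0.05, 18 members differed, beside 15.6% of all genes, and the next were NDUFB11 (difference 0.61, adjusted p = 0.0798) and SDHC (difference 0.78, adjusted p = 0.1). With the trend subtracted in both tables, neither was called: the difference was 0.71 for NDUFA4 (adjusted p = 0.114) and 0.13 for NDUFB7 (adjusted p = 0.903). The 1 member called was then SDHC (difference 1.15, SE 0.272, adjusted p = 0.0211), beside 0.0952% of annotated genes called with the C-33A value higher. After subtraction SDHC was at -0.08 in C-33A, against -1.22 in CaSki. The subtraction rests on its annotated transcript of 13566 nt, so a shorter form in these cells would change this value.

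For miR-124-3p, no gene of any kind differed between the lines after adjustment (0% with the C-33A value lower and 0% with it higher), and 1 member did at an unadjusted p under 0.05, beside 2.51% of all genes. That member was ATP5ME, with deposited log2 fold changes of -0.37 in C-33A and 0.20 in CaSki (difference -0.57, SE 0.271, adjusted p = 1). For miR-218-5p the adjusted counts were likewise 0% and 0%, and 0 members differed at an unadjusted p under 0.05, beside 1.56% of all genes. The deposited p-values of the lines rest on unlike pooling of the spread: the degrees of freedom recovered from the deposited miR-23b-3p tables were 244868 in C-33A and 38.2 in CaSki.

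**Figure D5:**
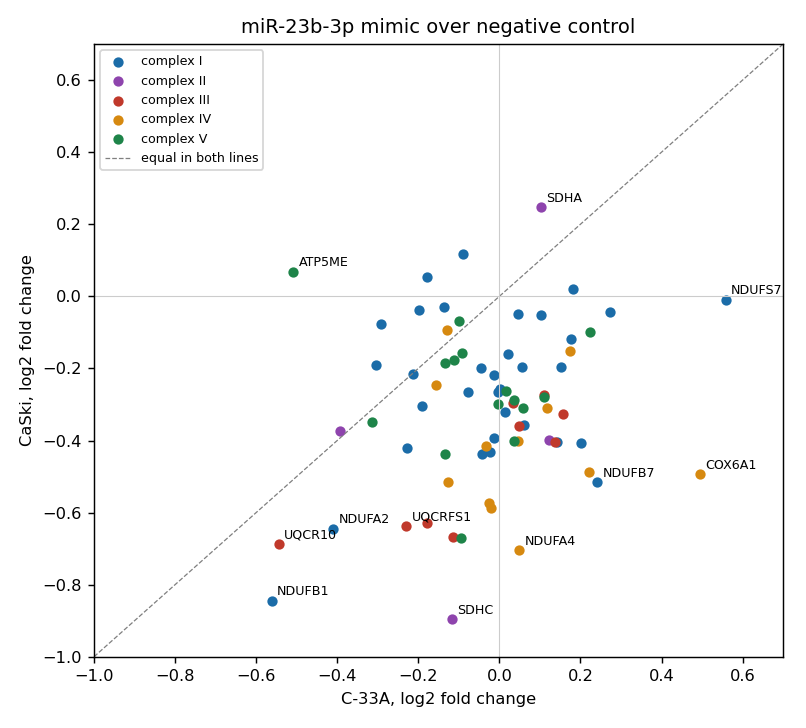
Deposited log2 fold change of miR-23b-3p mimic over negative control in C-33A (horizontal axis) and CaSki (vertical axis) for 73 members, by complex, with the line of equal values dashed. Most points lie below that line, and 62 of 73 have the higher value in C-33A.

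Within CaSki, the mimics were compared through their fold changes, in which the shared controls cancel. The miR-23b-3p value was below the miR-124-3p value in 63 of 74 members, with a median difference of -0.11, against 0.02 over all genes. No member passed the adjusted test, beside 0.0917% of genes with the miR-23b-3p value lower, and 1 did at an unadjusted p under 0.05, beside 4.77%. Against miR-218-5p, the miR-23b-3p value was lower in 72 of 74 members, with a median difference of -0.23, against -0.02 over all genes. No member passed, beside 0.0526% of genes, and 4 did so unadjusted, beside 3.57% of genes. UQCR10 had the lowest p in both, with differences of -0.54 from miR-124-3p (adjusted p = 0.881) and -0.71 from miR-218-5p (adjusted p = 0.612). The SEs here leave out the covariance through the shared controls and are too large.

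Genes that build or feed the chain were read from companion lists. Their values are given without the trend on transcript length and GC content subtracted, and the part of length in them was not tested. All genes under 700 nt had a median of -0.39 in CaSki with miR-23b-3p. In the deposited CaSki miR-23b-3p table, 5 of 47 assembly factors fell and 0 rose, with a median of -0.25, beside 3.84% of all genes called as fallen and 5.25% as risen. They were UQCC2 (-0.56, FDR = 0.00453) and SDHAF1 (-0.60, FDR = 0.0103), which serve complexes III and II, COA3 (-0.47, FDR = 0.0114) and COA4 (-0.43, FDR = 0.024) for complex IV, and NDUFAF8 (-0.44, FDR = 0.0184) for complex I. In the deposited CaSki miR-124-3p table, COA4 (-0.63, FDR = 0.0221) and TMEM126B (-0.58, FDR = 0.0292), an assembly factor of complex I, fell, 2 of 47 factors beside 0.801% of all genes. With miR-218-5p in C-33A, LYRM7, a chaperone of the Rieske protein of complex III, fell by 1.01 (FDR = 0.000154), the only 1 of 46 assembly factors called there, beside 0.273% of all genes.

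The same shares of all genes apply to the other lists in CaSki with miR-23b-3p. Of 15 regulators kept there, PPRC1, a coactivator of the PGC-1 family, rose by 0.55 (FDR = 0.0243). GABPB1, a subunit of GABP, fell by 0.43 (FDR = 0.0236), and SLIRP, which stabilises mitochondrial mRNA with LRPPRC, fell by 0.39 (FDR = 0.0266) in the deposited table. Of 14 genes of the TCA cycle, OGDH, a subunit of the oxoglutarate dehydrogenase complex, rose by 0.58 (FDR = 0.011), none fell, and the median was -0.09. Of 7 other carriers and isoforms kept, NDUFAB1, the mitochondrial acyl carrier protein, fell by 0.49 (FDR = 0.0109). GABPB1 was also at -0.51 in CaSki with miR-124-3p and -0.32 with miR-218-5p, and OGDH at 0.66 and 0.27, none called. These comparisons share their control samples, whose part was not tested.

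All 13 mitochondrially encoded genes were above 0 in the deposited CaSki miR-23b-3p table, with a median log2 fold change of 1.48 and none called. The SE of MT-CO2, at 2.03, was 2.88. In CaSki with miR-124-3p and miR-218-5p their medians were 0.61 each, and in C-33A they were -0.04 with miR-124-3p, 0.13 with miR-23b-3p and 0.65 with miR-218-5p. RN7SL1 was at -0.72 (FDR = 0.994) in CaSki with miR-23b-3p. Their part in the members' values was not tested.

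NDUFA6, an accessory subunit of complex I, stood apart from the other members kept. Its deposited log2 fold changes in CaSki were -13.12 with miR-124-3p, -13.64 with miR-23b-3p and -13.16 with miR-218-5p, all with FDR = 1. NDUFA3, under the level limit and so not counted, had -3.31, -5.13 and -5.54 in the same order and was not called. NDUFA6 was 1 of 189 genes below -8 in all 3 CaSki tables, none of them called. In all 3 C-33A tables, 188 of these genes were under a log2 CPM of 0. Of the 159 protein coding ones with a GENCODE position, 52 lay on chromosome 6 between 28 and 34 Mb. The 3 CaSki tables share their control samples, the fold of NDUFA6 is no bound, and the cause was not tested. Over the 73 other members kept, the CaSki medians were -0.19 with miR-124-3p, -0.30 with miR-23b-3p and -0.06 with miR-218-5p.

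On a per-length scale, ATP5MF and COX8A had the highest values of the members in both lines. ATP5MF had an average log2 CPM per kb of 9.48 in C-33A and 9.50 in CaSki, and COX8A had 9.34 and 8.96. SDHC was the lowest on this scale, at 0.59 in C-33A and 0.75 in CaSki. NDUFA9, a subunit of complex I, was the next, at 1.64 in C-33A and 1.30 in CaSki. Their annotated principal transcripts are 13566 and 8363 nt long, so a shorter form in these cells would raise both. Before division by length, NDUFA9 had an average log2 CPM of 4.71 in C-33A and 4.36 in CaSki. ATP5F1A was then at 10.76 in C-33A and 8.26 in CaSki, above ATP5MF at 7.77 and 7.78. The principal transcripts of ATP5F1A and ATP5MF are annotated at 5818 and 305 nt, so the highest ranks rest on annotated length too. Of the 76 members, 47 have at least 1 listed pseudogene and 43 have an exon that overlaps another annotated gene on either strand. How the counting treated strand is not known here, and reads of such pairs may not be separable.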

How the data were processed

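Per the submitters' processing notes, the tools were STAR 2.7.10b, FastQC 0.73, edgeR 3.36.0 and featureCounts 2.0.3, on the build GRCh38 (hg38). Each of the 6 deposited tables lists 61217 genes with their log2 fold change and log2 CPM, per the file headers. The deposited tables also hold an F score for each gene, and the deposited p-value comes with its FDR, which equals a Benjamini-Hochberg adjustment across the whole table. Without values per sample, depth is unknown, and the fit to counts that the design foresaw was not made.

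Members and lists were chosen with earlier results of these data known. Genes with a log2 CPM of 0 or more were kept. SEs are the log2 fold change divided by the normal quantile of the two-sided p-value. Differences were tested with a normal test and adjusted over all genes. Length, GC content and 3′ UTRs come from the APPRIS principal transcript of GENCODE 29 (GRCh38), and the trend was a robust spline. The steps were tested on simulated data, in Python 3.11.15 with pandas 2.3.3, scipy 1.17.1 and statsmodels 0.14.6. Promoter motifs were shortened to 9 letters for NRF1 and YY1. Named genes were the called members up to 15 by lowest p (where under 4 were called, the 4 with the lowest p), the highest and lowest of each complex, those with the lowest p of a difference, the lowest with a seed match, and up to 4 by lowest p of each companion list. Further called members are also named.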

Additional observations from a re-analysis of the deposited data

Results flagged for a closer look

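The fold change of the miR-23b-3p mimic over the negative control differed between the lines in 2 members by a test of the difference itself. NDUFA4, the subunit of complex IV, differed by 0.753 on the log2 scale and NDUFB7, of complex I, by 0.756, with the higher value in C-33A. Both were also below 0 in CaSki with miR-124-3p (-0.59 and -0.34) and with miR-218-5p (-0.49 and -0.21), not called. The part of the control samples that the CaSki comparisons share was not tested. With the trend on transcript length and GC content subtracted in both tables, neither passed the threshold, with differences of 0.71 for NDUFA4 (adjusted p = 0.114) and 0.13 for NDUFB7 (adjusted p = 0.903). The 1 member called under that setting was SDHC, with a difference of 1.15 (adjusted p = 0.0211). SDHC was not called without the subtraction, which rests on its annotated transcript of 13566 nt, so a shorter form would change this value.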

How the results depend on the processing

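Alternatives changed the FDR threshold, the genes adjusted over, the level filter, the centring, the trend on length and GC content and the summary. With the trend subtracted, the members called in CaSki with miR-23b-3p numbered 12, and the medians moved to -0.0457 (C-33A, miR-124-3p), -0.0327 (CaSki, miR-124-3p) and -0.115 (CaSki, miR-23b-3p), while the test between lines for miR-23b-3p called 1 member, SDHC, and no longer NDUFA4 or NDUFB7. With the longest transcript in place of the principal one, chosen after seeing the data, 12 were called, and the CaSki medians were -0.0263 for miR-124-3p, -0.105 for miR-23b-3p and 0.0117 for miR-218-5p, the last with its sign reversed, and the cause was not tested. The mean in place of the median gave -0.376 for miR-124-3p, -0.488 for miR-23b-3p and -0.246 for miR-218-5p in CaSki, where NDUFA6 lies far below the rest, and -0.201, -0.308 and -0.0689 in that order without it, also chosen after seeing the data. With a share of 0.5 of each squared SE taken as common to both mimics, 2 members, UQCR10 and NDUFA2, had a lower value with miR-23b-3p than with miR-218-5p in CaSki, beside 0.414% of all genes. Under the other alternatives, the members called in CaSki with miR-23b-3p numbered between 23 and 32 (32 with the adjustment over kept genes alone), and each other comparison with a mimic kept 0. Of the 23 members called in the deposited CaSki miR-23b-3p table, 7 kept the call with the trend subtracted, and the others lost it. Among the named members, none changed sign while called. No paired analysis was possible because values per sample are not analysed here, and for the same reason the replicate block and leaving out a replicate were not run.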
